A study of Mus musculus with 6 samples.

Results

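The 10 genes described here encode the receptors and bridging molecules through which phagocytes take up apoptotic cells. They are Mfge8, Gas6, Pros1, Axl, Mertk, Tyro3, Stab1, Stab2, Megf10 and Adgrb1, and they were found by symbol in the GENCODE M21 annotation among the 54532 genes of the count table. Their RNA was measured by RNA-Seq in the epididymal fat, the visceral depot beside the epididymis, of ND-fed and HFD-fed mice, with 3 samples per diet. All mice were male C57BL/6J, the labels name no drug treatment, and the mice received either an ND with 4.5% fat or an HFD with 60% fat from 4 weeks of age for 16 weeks. The study used the comparison to ask whether obese fat holds cells that resemble cancer-associated adipocytes. The labels do not say whether each sample came from a separate mouse, so the p-values measure the spread between samples, which may be technical.

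A dying cell moves phosphatidylserine, a lipid of the inner leaflet, to its surface, where phagocytes recognize it. Mfge8 binds this lipid and links it to the integrins αvβ3 and αvβ5. Gas6 and Pros1 (protein S) are vitamin K-dependent proteins that link it to the TAM receptor tyrosine kinases Tyro3, Axl and Mertk, of which Axl is served mainly by Gas6. Stab1 and Stab2 (the stabilins), Megf10 and Adgrb1 (BAI1) bind the dying cell themselves or through C1q. In obese fat, macrophages gather around dying adipocytes in crown-like structures.

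Of the 10 genes, 5 were higher and 2 were lower in the fat of HFD-fed mice at an adjusted p-value under 0.05 by edgeR's quasi-likelihood test. Mfge8, Pros1, Axl, Stab1 and Stab2 rose, and Gas6 and Megf10 fell. Mertk and Tyro3 did not pass, and Adgrb1 had too few counts to be tested. The same test called 15.9% of all 15751 genes, 9.85% as higher and 6.04% as lower. The diets did not overlap in 7 of the 9 genes tested, which was the case for 40.9% of all genes tested (21.7% higher and 19.1% lower on HFD). The median log2 fold change of the 9 genes was 0.77, beside 0.0074 over all genes tested. In whole tissue, a change in the number of cells of a type and a change in the RNA per cell cannot be told apart.

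The count totals lay between 16996896 and 18859320 per library. CPM, the count scaled to the library size with edgeR's TMM factor, compares libraries within a gene, and FPKM, which also divides by gene length, was used to compare genes. A gene with 3 counts had between 0.150 and 0.181 CPM, a floor that covers counting error only. The adipocyte markers were abundant in every library, with 39753 to 52416 summed CPM on ND and 17337 to 39425 on HFD over 15 genes. Of these, 1 was called higher, 4 lower and 10 did not pass. Cfd, 1 of the 4, had a mean of 13634 CPM on ND and 1275 CPM on HFD, a large part of the fall of the sum. The third ND library stood apart, with 273 genes that had over 50 counts there and over 10 times the counts of any other library. A list of duct epithelium and cilium genes had 424 summed CPM in it and at most 17.5 in the other ND libraries. Without this library the log2 fold changes were 2.39 for Mfge8, 0.72 for Pros1, -0.88 for Gas6, 0.86 for Axl, 0.04 for Mertk, -0.59 for Tyro3, 0.996 for Stab1, 2.40 for Stab2 and -2.86 for Megf10.

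**Figure D1:**
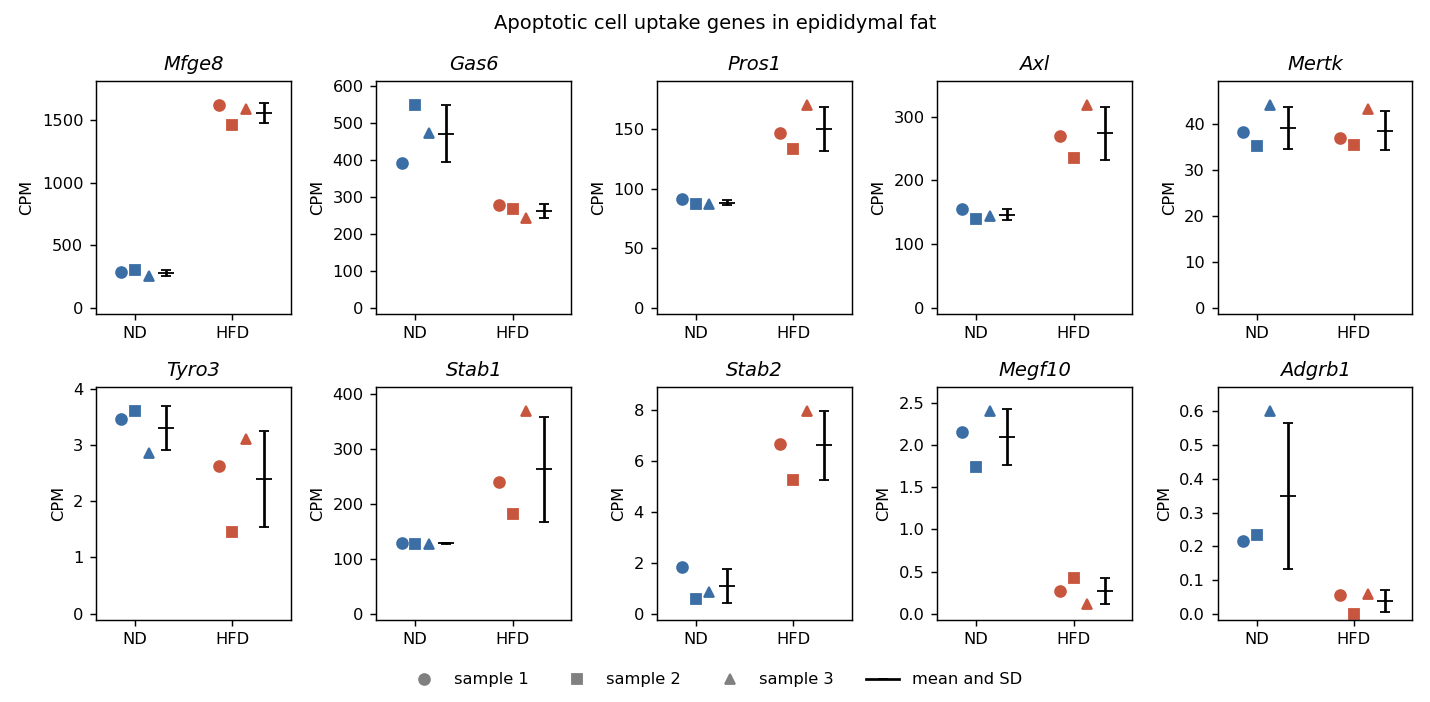
CPM of the 10 genes in each library, with ND in blue and HFD in red, a marker shape for each sample and the mean with its SD beside the points. Mfge8 lay between 252 and 300 CPM on ND and between 1462 and 1618 CPM on HFD, while Mertk lay between 35.2 and 44.1 CPM on ND and between 35.4 and 43.4 CPM on HFD.

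Mfge8 (milk fat globule-EGF factor 8, ENSMUSG00000030605, chromosome 7 of GRCm38 from 79133768 to 79149060, minus strand) is secreted by macrophages and other cells. It had 282, 300 and 252 CPM in the 3 ND samples and 1618, 1462 and 1590 CPM in the HFD samples. Every HFD sample was far above every ND sample, and the spread within each diet was small. The means were 278 ± 24.3 and 1557 ± 83.5 CPM (SD, n = 3 each), 5.61-fold higher on HFD with a 95% interval from 4.22 to 7.46 (log2 fold change 2.49, SE 0.18, adjusted p = 0.00171 by the quasi-likelihood test of edgeR). In the order of mean FPKM over all genes listed, Mfge8 moved from place 848 on ND to place 115 on HFD.

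Gas6 (growth arrest-specific 6, ENSMUSG00000031451, chromosome 8 from 13465374 to 13494490, minus strand) is the ligand that all TAM receptors share. Its level was 392, 547 and 473 CPM in the ND samples, against 277, 266 and 241 CPM in the HFD samples. The diets did not overlap, and the ND samples differed more among themselves than the HFD samples did. Gas6 was 1.80-fold lower on HFD, with means of 471 ± 77.6 and 262 ± 18.5 CPM (SD, n = 3 each, log2 fold change -0.85, SE 0.17, adjusted p = 0.0203 from edgeR's test). It was place 234 in mean FPKM on ND and place 476 on HFD. Of its exonic bases 1.33% overlap an exon of Tmem255b on the other strand.

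Pros1 (ENSMUSG00000022912, chromosome 16 from 62854307 to 62929346, plus strand) encodes protein S, which is also an anticoagulant of plasma. It had 91.0, 86.8 and 86.9 CPM in the ND samples, against 146, 134 and 170 CPM in the HFD samples. The ND samples were nearly alike and lay below every HFD sample. Pros1 rose 1.70-fold, with a 95% interval from 1.38 to 2.09 (log2 fold change 0.77, SE 0.13, adjusted p = 0.0122 from edgeR's test).

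Within a library, the make-up of the bridging molecules differed between the diets. Gas6 held 65.1%, 71.6% and 71.3% of the summed FPKM of Mfge8, Gas6 and Pros1 in the ND samples and 22.2%, 23.3% and 19.9% in the HFD samples. Mfge8 held 25.4%, 21.3% and 20.6% on ND and 70.4%, 69.4% and 71.3% on HFD. Mfge8 and Gas6 thus exchanged places in the order of FPKM, in every sample of each diet. The FPKM ratio of Mfge8 to Gas6, which does not depend on the library size, was 0.390, 0.297 and 0.289 on ND and 3.17, 2.98 and 3.58 on HFD, a 10.03-fold difference. With 3 samples against 3 the exact permutation test (two-sided) cannot go below p = 0.1, which is what it gave, also after adjustment over 8 such ratios. Pros1 stayed the lowest of the group, with a share between 7.09% and 9.43% on ND and between 7.29% and 8.75% on HFD.

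**Figure D2:**
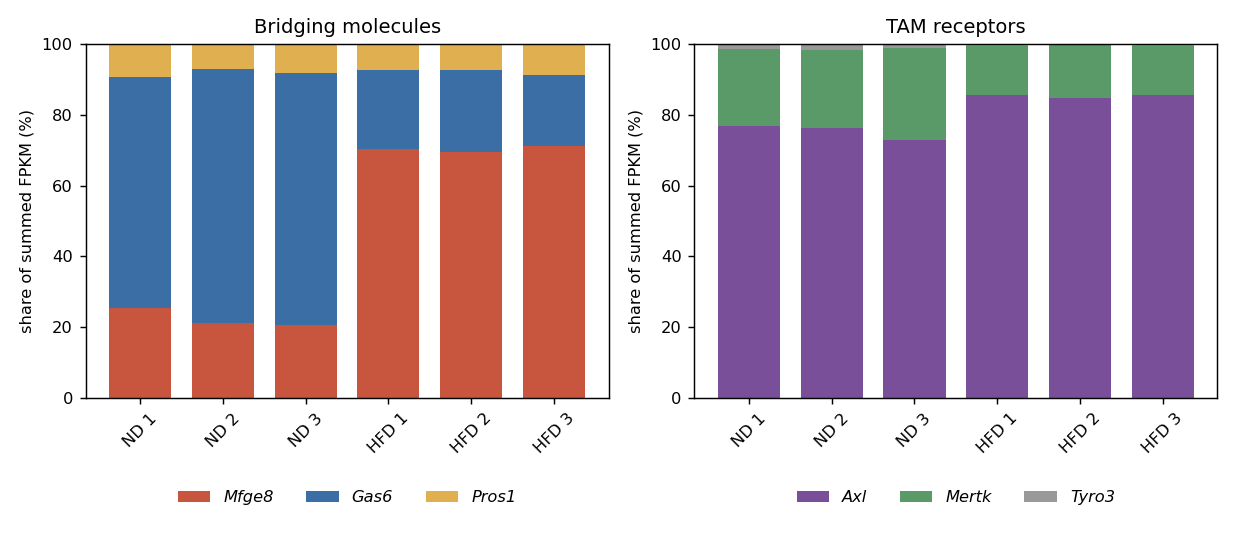
Share of each gene in the summed FPKM of the bridging molecules (left) and of the TAM receptors (right), in percent, with 1 bar per library. Gas6 took 65.1% to 71.6% of the bridging molecules on ND, and Mfge8 took 69.4% to 71.3% on HFD.

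Gas6 and Pros1 together, the TAM ligands, summed to 179, 241 and 208 FPKM on ND and 145, 138 and 136 FPKM on HFD. The lowest ND sample was above the highest HFD sample. The share of Pros1 in this sum was 10.6% ± 1.85 on ND and 26.4% ± 3.62 on HFD (SD, n = 3 each).

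Axl (ENSMUSG00000002602, chromosome 7 from 25757273 to 25788705, minus strand) was the most abundant of the TAM receptors by FPKM in every library. It had 156, 140 and 143 CPM in the ND samples, against 269, 234 and 318 CPM in the HFD samples. All HFD samples were above the ND samples, and the third was highest. Axl rose 1.87-fold, with a 95% interval from 1.46 to 2.40 (log2 fold change 0.90, SE 0.15, adjusted p = 0.0125 by the quasi-likelihood test of edgeR).

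Mertk (ENSMUSG00000014361, chromosome 2 from 128698956 to 128802894, plus strand) is the TAM receptor that tissue macrophages typically use to engulf apoptotic cells. Its level was 38.3, 35.2 and 44.1 CPM in the ND samples, against 37.0, 35.4 and 43.4 CPM in the HFD samples. The diets overlapped fully. The log2 fold change was -0.02 (SE 0.14, adjusted p = 0.928 from edgeR's test), and its 95% interval, from 0.790-fold to 1.23-fold, did not reach the 1.87-fold of Axl. The FPKM ratio of Axl to Mertk was 3.50, 3.42 and 2.80 on ND and 6.26, 5.70 and 6.30 on HFD, 1.89-fold higher (exact permutation test, two-sided, p = 0.1, the smallest possible).

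Tyro3 (ENSMUSG00000027298, chromosome 2 from 119797733 to 119818104, plus strand), a receptor best known from the nervous system, was rare. It had 64, 62 and 57 counts in the ND samples, against 48, 24 and 54 in the HFD samples. The CPM of the diets overlapped, with 2.85 to 3.60 CPM on ND and 1.45 to 3.11 on HFD, and the second HFD sample was lowest. The log2 fold change of -0.46 (SE 0.35) did not pass (adjusted p = 0.390 from edgeR's test), and its 95% interval reached from 0.413-fold to 1.28-fold. Of the summed FPKM of the TAM receptors, Axl held 75.2% ± 2.10 on ND and 85.4% ± 0.560 on HFD, Mertk 23.4% ± 2.27 and 14.04% ± 0.707, and Tyro3 1.38% ± 0.209 and 0.595% ± 0.147 (SD, n = 3 each).

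**Figure D3:**
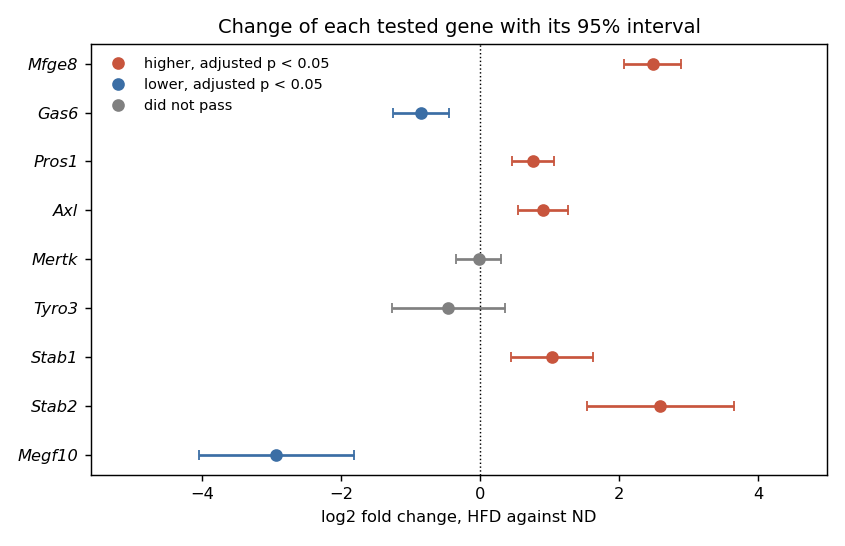
log2 fold change of the 9 tested genes for HFD against ND, with 95% intervals from edgeR's quasi-likelihood fit and colours for the call. The interval of Mertk, from -0.34 to 0.30, lies around 0, and those of Mfge8 and Stab2 start at 2.08 and 1.54.

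The stretch just upstream of the transcription start is shown for Mfge8 and Gas6, the bridging molecules that moved in opposite directions, for Axl and Mertk, of which 1 rose and 1 did not pass, and for Stab1. Each sequence holds the 250 bases before the start in RefSeq's GRCm38.p6 annotation, written 5′ to 3′ on the gene's strand, and the capitals mark a GC box (GGGCGG, or CCGCCC on the other strand) or a CCAAT box (ATTGG on the other strand).
Mfge8, chr7:79149061-79149310, minus strand: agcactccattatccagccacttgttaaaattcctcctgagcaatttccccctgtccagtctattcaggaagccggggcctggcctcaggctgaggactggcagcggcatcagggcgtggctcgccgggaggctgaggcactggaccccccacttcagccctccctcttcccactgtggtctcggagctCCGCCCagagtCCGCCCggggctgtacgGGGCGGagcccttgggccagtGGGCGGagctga
Gas6, chr8:13494536-13494785, minus strand: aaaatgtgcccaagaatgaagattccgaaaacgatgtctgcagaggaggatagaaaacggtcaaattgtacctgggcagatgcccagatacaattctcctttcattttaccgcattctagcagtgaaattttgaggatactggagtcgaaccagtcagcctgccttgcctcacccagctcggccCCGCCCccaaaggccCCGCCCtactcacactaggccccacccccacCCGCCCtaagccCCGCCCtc
Axl, chr7:25788734-25788983, minus strand: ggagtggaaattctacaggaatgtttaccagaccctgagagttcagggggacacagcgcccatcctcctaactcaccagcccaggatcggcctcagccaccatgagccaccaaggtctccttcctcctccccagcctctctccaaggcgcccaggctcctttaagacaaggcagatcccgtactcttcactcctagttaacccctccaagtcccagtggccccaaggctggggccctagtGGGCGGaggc
Mertk, chr2:128698665-128698914, plus strand: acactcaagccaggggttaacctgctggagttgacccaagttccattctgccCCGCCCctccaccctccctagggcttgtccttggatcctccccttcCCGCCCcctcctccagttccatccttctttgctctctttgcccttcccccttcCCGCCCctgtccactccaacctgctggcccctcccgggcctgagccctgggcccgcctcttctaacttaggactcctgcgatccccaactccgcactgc
Stab1, chr14:31168642-31168891, minus strand: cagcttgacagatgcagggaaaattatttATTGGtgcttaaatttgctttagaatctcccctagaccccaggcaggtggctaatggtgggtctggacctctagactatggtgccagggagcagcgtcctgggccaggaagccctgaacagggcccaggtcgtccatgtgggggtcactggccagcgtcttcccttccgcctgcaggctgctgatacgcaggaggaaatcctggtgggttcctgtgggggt

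A RefSeq promoter was given for 8 of the 10 genes. A GC box, the letters bound by Sp1 and its relatives, was found on either strand in 6 of them, beside 32.7% of all 32851 promoters. Mfge8 held 4, with first bases 61, 50, 33 and 12 bases before the start, Gas6 also held 4, and Pros1 5, of which the last 2 overlap. Mertk and Tyro3 held 3 each and Axl held 1, so genes that rose, fell or did not pass all had the motif. The stabilins had none. The promoters with a GC box had 54.8% to 73.2% GC, beside a median of 52.4% over all promoters. Those of Stab1 and Stab2 had 57.2% and 53.2%. The part of base composition in the number of GC boxes was not tested. A CCAAT box (33.8% of all promoters) was found in Stab1, and a nuclear receptor core motif (AGGTCA, 14.02% of all promoters) in Stab2. None of the 8 held a TATA box (TATAAA, 12.4%), an AP-1 site (TGANTCA, 6.75%) or the PU.1 letters GAGGAAGT (2.44%). The DR1 element of PPAR and the DR4 element of LXR, each made of a pair of this core motif in the same orientation with 1 or 4 bases between, were also not found, and they occurred in 0.0335% and 0.0152% of all promoters.

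Stab1 (stabilin-1, ENSMUSG00000042286, chromosome 14 from 31139013 to 31168641, minus strand) is a scavenger receptor of macrophages and of sinusoidal and lymphatic endothelium. It had 129, 128 and 128 CPM in the ND samples, against 239, 182 and 368 CPM in the HFD samples. The ND samples were almost equal, and the HFD samples lay above them and spread widely. Stab1 rose 2.05-fold, with a 95% interval from 1.36 to 3.09 (log2 fold change 1.04, SE 0.25, adjusted p = 0.0344 from edgeR's test). An exon of Nt5dc2 on the other strand overlaps 1.09% of its exonic bases.

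Stab2 (stabilin-2, ENSMUSG00000035459, chromosome 10 from 86841198 to 87008025, minus strand) is known as the hyaluronan scavenger of liver and spleen sinusoids. It had 34, 10 and 17 counts in the ND samples, against 122, 87 and 138 in the HFD samples, or 0.580 to 1.84 CPM and 5.24 to 7.95 CPM. The diets were well apart, although the first ND sample was well above the other ND samples. Stab2 rose 6.04-fold, with a 95% interval from 2.90 to 12.6 (log2 fold change 2.59, SE 0.45, adjusted p = 0.0133 from edgeR's test). It remained far rarer than Stab1, with an FPKM of 0.759 ± 0.154 against 25.7 ± 9.24 on HFD (SD, n = 3 each). An exon of Gm16268 on the other strand overlaps 1.61% of its exonic bases. Of 7 lymphatic endothelial markers edgeR's test called 0, beside 4 lower at an unadjusted p under 0.05, 3 lower in DESeq2 and 0 in limma-voom, with a median log2 fold change of -2.44. Of 10 blood endothelial markers it called 0, beside 2 lower at an unadjusted p under 0.05, 1 lower in DESeq2 and 0 in limma-voom, with a median of -0.29. The part of these cells in the change of Stab2 was not tested.

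Megf10 (ENSMUSG00000024593, chromosome 18 from 57133090 to 57297467, plus strand) is a receptor of glia and muscle progenitors that binds C1q on dying cells. It had 40, 30 and 48 counts in the ND samples, against 5, 7 and 2 in the HFD samples. The highest HFD sample had 0.422 CPM and the lowest ND sample 1.74 CPM, so the diets did not overlap, and 1 HFD sample was under the floor. Megf10 was 7.65-fold lower on HFD (log2 fold change -2.93, SE 0.48, adjusted p = 0.0115 from edgeR's test). In the Schwann cell and nerve list, 2 of 6 tested genes were lower and 1 was higher, and the part of these cells in the change of Megf10 was not tested.

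Adgrb1 (BAI1, ENSMUSG00000034730, chromosome 15 from 74516195 to 74589465, plus strand) signals through Elmo and Dock1. It had 4, 4 and 12 counts in the ND samples, against 1, 0 and 1 in the HFD samples and was removed by the filter on low counts. The summed counts, 20 against 2, gave a 9.37-fold ratio of ND to HFD with an exact 95% interval from 2.28 to 82.7 for counting error alone, and 12 of the ND counts were in the third library, the one that stood apart. Without a filter its adjusted p was 0.131 in edgeR and 0.135 in DESeq2. Gm26117, on the same strand, overlaps 1.32% of its exonic bases.

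Most of these calls were lost when the first HFD library or an ND library was left out, while all 7 held without the second or without the third HFD library. With 1 library left out at a time, edgeR's test called Mfge8 in 6 of 6 fits (adjusted p from 0.000529 to 0.0278), Megf10 in 4, Stab2 in 3, and Axl, Pros1, Gas6 and Stab1 in 2 each. Without the first HFD library Mfge8 was the only one of the 10 genes to pass, and without the first ND library Mfge8 and Stab2 passed. Mfge8 and Megf10 were called without the second and without the third ND library. The adjusted p-values that missed the threshold reached 0.0607 for Axl, 0.0592 for Pros1, 0.0788 for Gas6, 0.115 for Stab1, 0.0628 for Stab2 and 0.0629 for Megf10. The log2 fold changes of the 7 called genes kept their sign in these 6 fits, from 2.39 to 2.55 for Mfge8, from 0.77 to 1.01 for Axl, from 0.65 to 0.85 for Pros1, from -0.96 to -0.72 for Gas6, from 0.70 to 1.25 for Stab1, from 2.30 to 3.19 for Stab2 and from -3.38 to -2.59 for Megf10.

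Macrophages are a known source of several of these receptors, and macrophage markers were higher in the same libraries. Of 15 general macrophage markers 9 were higher and 0 lower by edgeR's test, with a median log2 fold change of 1.74. Of 10 markers of lipid-associated macrophages 7 were higher and 0 lower, with a median of 3.92. The shares over all genes tested were 9.85% higher and 6.04% lower. The summed level of the 15 general markers was 1664, 1541 and 1570 CPM in the ND samples, against 4554, 3404 and 8197 CPM in the HFD samples, and 0 of the 15 were at 0 in all libraries. The third HFD library, which had the most of these markers, was also the highest HFD library in Axl, Pros1, Mertk, Tyro3, Stab1 and Stab2, and the part of macrophage number in the values of these genes was not tested. Each gene was also set against the mean log2 CPM of these 15 markers in its own library, a mean that was 5.49, 5.28 and 5.38 on ND and 6.85, 6.25 and 7.41 on HFD.

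On this relative log2 scale, for which 0.5 CPM was added to every value, Mfge8 was 2.73 ± 0.188 above the markers on ND and 3.76 ± 0.521 above them on HFD (SD, n = 3 each), a difference of 1.03. Mertk, level in CPM, went from -0.08 ± 0.16 to -1.55 ± 0.438, a difference of -1.47. Axl, Pros1 and Stab1, which rose in CPM, were lower against the markers, with differences of -0.56, -0.70 and -0.48. Gas6 and Megf10 differed by -2.29 and -3.22, and Tyro3 and Adgrb1 by -1.89 and -2.09. Adgrb1 was not tested, and at 0 to 0.0576 CPM on HFD its values there were set almost wholly by the added 0.5 CPM. Megf10, with a mean of 0.27 CPM on HFD, was also below the added value. In Mfge8 and the other genes named so far the diets did not overlap on this scale, and the exact permutation test (two-sided) gave the smallest possible p of 0.1. The marker mean itself did not overlap between the diets and was 1.45 higher on HFD. Mertk and Tyro3 overlapped in CPM and separated only after this mean was subtracted. How many of all genes would separate on this scale was not counted, so the separation is not particular to these genes. Stab2 differed by 0.77, with overlap (exact permutation p = 0.2). Against Adgre1, Cd68 and Csf1r alone, whose log2 fold changes were 2.91, 3.72 and 1.32, the difference of Mfge8 was -0.05 and that of Stab2 -0.32. The sign of these 2 thus depended on the markers chosen. The other 8 genes were lower against both sets, but the rise of the markers fixed this. Stab1, which rose most among these 8, had a log2 fold change of 1.04, below that of Adgre1, Cd68 or Csf1r and of the marker mean.

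**Figure D4:**
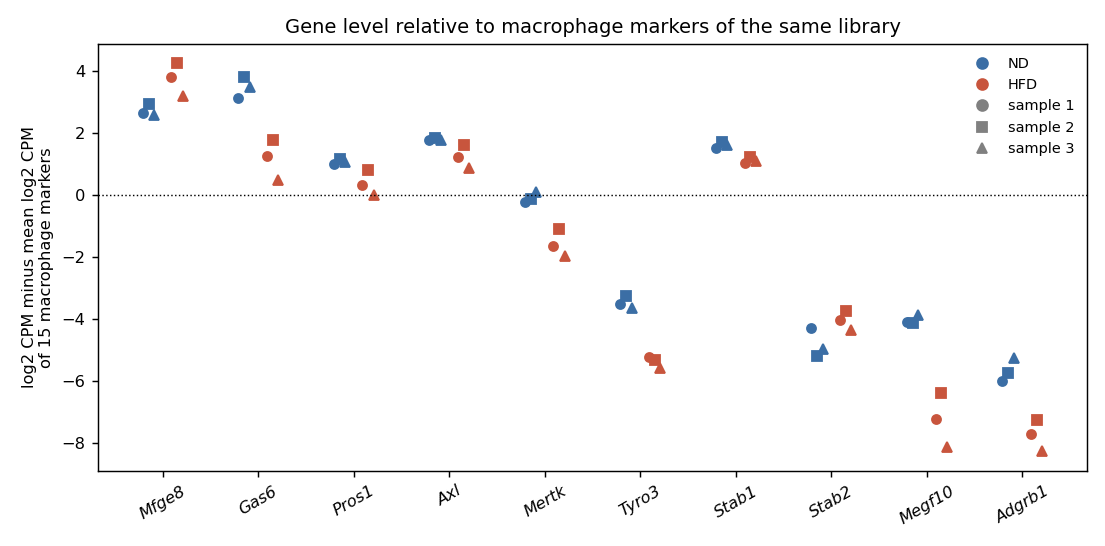
log2 CPM of each gene minus the mean log2 CPM of 15 macrophage markers in the same library, with ND in blue, HFD in red and a marker shape per sample. Mertk lay between -0.21 and 0.10 on ND and between -1.96 and -1.09 on HFD, and Mfge8 was higher on HFD. The marker mean itself was 1.45 higher on HFD, so a gene level in CPM lies lower on this scale.

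Among 97 other genes of apoptotic cell clearance, sorted by role into 9 lists, 92 were tested, and 30 were higher and 1 was lower by edgeR's test (32.6% and 1.09%, beside 9.85% and 6.04% of all genes tested). Their median log2 fold change was 0.34. The number called higher was 19 without the first HFD library, 15 without the first or the second ND library and 20 without the third, and 40 without the second HFD library. Over all genes tested it was 1552 with all libraries, and 380, 337, 376, 607 and 2368 in these fits, in the same order. The highest log2 fold changes of the 92 were those of Lgals3 and Cd300lb. Of 14 tested phosphatidylserine and scavenger receptors 5 were higher and 0 lower (median 0.61). Cd300lb, an activating receptor of myeloid cells, rose from 9.04 ± 0.984 to 138 ± 79.3 CPM, and Cd300a, an inhibitory relative, from 12.1 ± 0.497 to 151 ± 84.0 CPM (SD, n = 3 each, log2 fold changes 3.93 and 3.63, adjusted p = 0.00583 and 0.00606 from edgeR's test). Havcr2 (Tim-3) had a log2 fold change of 3.56 and Msr1, a scavenger receptor, of 3.14 (adjusted p = 0.0338 and 0.0103 from edgeR's test). The call of Havcr2 was lost in 5 of 6 fits with a library left out, all but that without the second HFD library (adjusted p up to 0.118 from edgeR's test), and that of Msr1 without the first or the second ND library (0.0523 and 0.0507). The remaining gene that passed was Lrp1, 2.06-fold higher, whose call was lost without the first HFD library or any 1 of the ND libraries (adjusted p from 0.0865 to 0.109 from edgeR's test). Timd4 (Tim-4), a receptor of resident macrophages, did not pass, with 146, 125 and 107 counts in the ND samples, against 45, 76 and 27 in the HFD samples (log2 fold change -1.25, adjusted p = 0.0776 from edgeR's test).

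None of the integrin chains that receive Mfge8 passed. Itgav had a log2 fold change of 0.93 (SE 0.26, adjusted p = 0.0533 from edgeR's test), Itgb5 of 0.51 (adjusted p = 0.113) and Itgb3 of 0.50 (adjusted p = 0.257), so that 0 of 3 were called, beside 2 at an unadjusted p under 0.05, 1 in DESeq2 and 0 in limma-voom. For Itgb5 the diets overlapped, at 182 ± 43.0 and 261 ± 29.4 CPM (SD, n = 3 each).

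Of 11 tested genes for other bridging molecules and opsonins 8 were higher and 0 lower (median 1.26). Lgals3 (galectin-3), which can bridge cargo to Mertk, rose from 85.7 ± 17.4 to 2215 ± 1424 CPM (SD, n = 3 each, log2 fold change 4.69, adjusted p = 0.00624 from edgeR's test). Its HFD counts of 35485, 15758 and 65232 spread widely, whereas those of Mfge8, 29618, 24268 and 27602, were nearly even. Anxa1 and Thbs1 had log2 fold changes of 2.07 and 2.02 and C1qb of 1.56 (adjusted p = 0.00652, 0.0127 and 0.00832 from edgeR's test). Thbs1 did not pass without the first HFD, the first ND or the third ND library (adjusted p from 0.0532 to 0.0569 from edgeR's test). C1qb is a chain of the complement opsonin that Megf10 binds, and its rise was the opposite of the fall of that receptor.

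**Figure D5:**
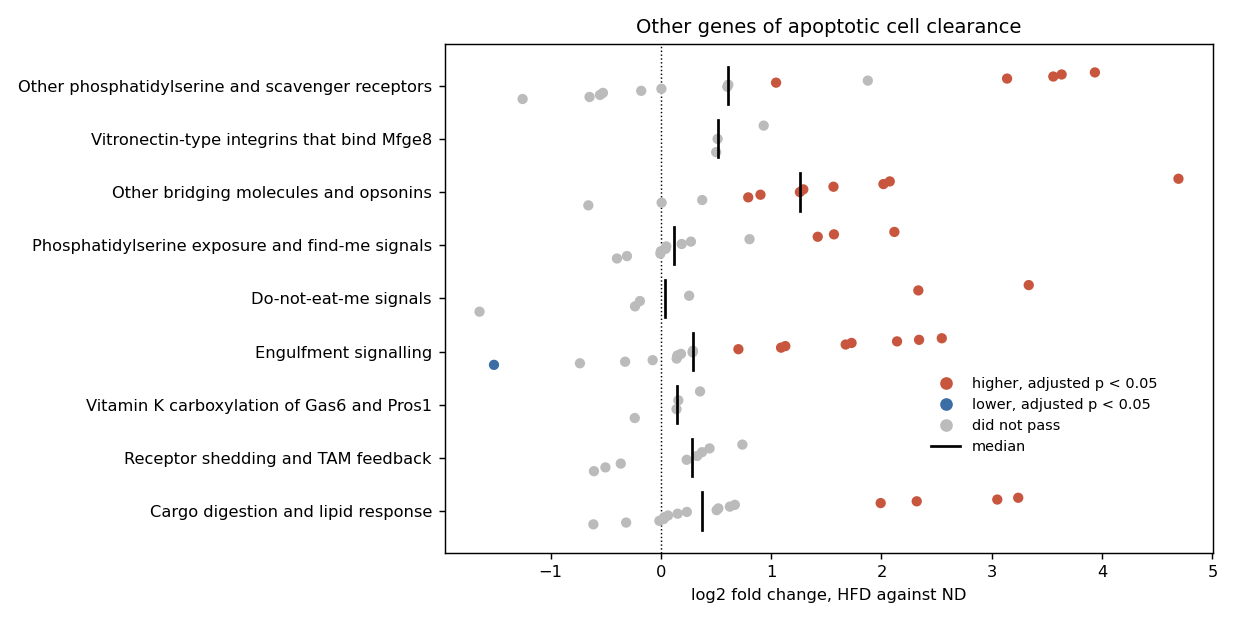
log2 fold change for HFD against ND of 92 other clearance genes in 9 lists, with each point a gene, colours for the call of edgeR's test and a black line at the median of the list. The list of bridging molecules and opsonins had the highest median, 1.26, and the vitamin K list had none that passed.

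Of 18 engulfment signalling genes 8 were higher and 1 was lower (median 0.29). Syk, Dock2 and Vav1, which are used mainly by blood cells, rose with log2 fold changes of 2.55, 2.34 and 2.14 (adjusted p = 0.00958, 0.00791 and 0.00889 from edgeR's test), as did Vav3 with 1.73 (adjusted p = 0.00918), while Dock1, the partner of Elmo in most other cells, had -0.07 (adjusted p = 0.689). The 1 lower gene was Gulp1, an adaptor of engulfment receptors such as Stab2, with 1369, 776 and 1303 counts in the ND samples, against 429, 419 and 275 in the HFD samples (log2 fold change -1.51, SE 0.24, adjusted p = 0.0115 from edgeR's test). Stab2 and this adaptor thus moved in opposite directions. Without the first HFD or the first ND library Gulp1 had an adjusted p of 0.0526 or 0.0505 from edgeR's test, and without the first or the second ND library Syk had 0.0508 or 0.0507.

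For cargo digestion and the lipid response 4 of 16 genes were higher and 0 lower (median 0.37). Lipa, the lysosomal acid lipase, rose from 79.6 ± 7.52 to 751 ± 446 CPM, and Abcg1, a sterol exporter, from 15.3 ± 0.826 to 127 ± 38.7 CPM (SD, n = 3 each, log2 fold changes 3.24 and 3.05, adjusted p = 0.00791 and 0.00271 from edgeR's test). The LXR gene Nr1h3 and Abca1, another sterol exporter, had -0.01 and 0.07 (adjusted p = 0.953 and 0.796). Dnase2a, which digests the DNA of engulfed cells, and Ucp2 had log2 fold changes of 2.32 and 1.99 (adjusted p = 0.0114 and 0.00962 from edgeR's test). Both narrowly missed the threshold without the first or the second ND library (adjusted p from 0.0507 to 0.0571 from edgeR's test).

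Among the signals that a dying or living cell displays, 3 of 12 genes for phosphatidylserine exposure and find-me signals were higher and 0 lower (median 0.12). They were P2ry6 and P2ry2, receptors for released nucleotides, and Panx1, with log2 fold changes of 2.12, 1.42 and 1.57 (adjusted p = 0.00958, 0.00624 and 0.0409 from edgeR's test). Panx1 did not pass without the first HFD library or any 1 of the ND libraries (adjusted p from 0.0877 to 0.137 from edgeR's test). The scramblase genes Xkr8 and Ano6 had 0.00 and 0.04 and did not pass. Of 6 do-not-eat-me genes 2 were higher and 0 lower (median 0.03). Sirpa, the phagocyte's receptor for Cd47, rose by 2.33 on the log2 scale (adjusted p = 0.00958 from edgeR's test, and 0.0507 without the second ND library), whereas Cd47 itself had 0.26 (adjusted p = 0.230).

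The enzymes that carboxylate Gas6 and Pros1 in the vitamin K cycle, Ggcx, Vkorc1 and Vkorc1l1, and the protease Furin had log2 fold changes from -0.24 to 0.36, and 0 of 4 were called by edgeR's test, beside 1 at an unadjusted p under 0.05 and 0 in DESeq2 and in limma-voom. In the list of receptor shedding and TAM feedback 0 of 8 were called by edgeR's test (median 0.28), beside 2 higher and 1 lower at an unadjusted p under 0.05, 2 higher in DESeq2 and 0 in limma-voom. Adam10 and Adam17, proteases that cut TAM receptors from the cell surface, had 0.44 and 0.74 (adjusted p = 0.0558 and 0.0778 from edgeR's test).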

How the data were processed

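Total RNA of whole epididymal fat (TRIzol, NEBNext Ultra RNA kit) was sequenced by the authors in 6 libraries. The authors deposited raw read counts and FPKM values per Ensembl gene. Per the labels' processing notes, the tools were CASAVA 1.8, fastp, HISAT2 2.0.5, featureCounts 1.5.0-p3 and DESeq2 1.20.0, while the study's methods name TopHat, Cufflinks and GRCm38. The notes list a human build, but the gene identifiers are those of mouse. The strand setting of the counting is not given in the sources used here, so reads of genes that overlap on opposite strands cannot be told apart. The FPKM of 11492 genes followed from the counts within 1.5e-08 on the log2 scale.

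The counts were tested with edgeR 4.0.16 in R 4.3.3 (filterByExpr, TMM, robust quasi-likelihood fit, Benjamini-Hochberg adjustment over all genes tested, threshold 0.05). DESeq2 1.42.0, limma 3.58.1 (voom, and log2 FPKM with a pseudocount of 1 or 0.1), other scalings and filters, a replicate block and leaving out each library were the alternatives. On simulated counts edgeR recovered 187 of 200 genes changed 4-fold, with 10 false calls among 15485 genes. The changed genes were drawn above a limit of mean CPM that Tyro3, Stab2 and Megf10 do not reach. Smaller changes were not simulated, so this recovery does not cover rare genes or changes near 2-fold. Ratios and summed shares of FPKM were compared with the two-sided exact permutation test where a p is given. These ratios and shares were chosen after values had been seen.

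All 10 genes were described, and of each clearance list the called genes, at most the 4 with the largest absolute log2 fold change, were named. Clearance genes named although they did not pass, and Lrp1 and Gulp1, which passed but fall outside this rule, were chosen after their values were seen. 1 called clearance gene is not reported here by name. The genes, lists and tests were chosen with earlier results of these data known. Promoters came from RefSeq (GRCm38.p6), gene positions from GENCODE M21 (GRCm38). Promoters that overlap annotated exons were not printed. Protein sequences were not used here.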

Additional observations from a re-analysis of the deposited data

How the results depend on the processing

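Of the 151 alternative values of the 9 tested log2 fold changes, 125 kept their call and direction, 24 lost the threshold and 2, both of Mertk, changed sign (0.041 without the second HFD library and 0.038 without the third ND library, in a range from -0.129 to 0.041). The number of the 10 genes called higher, 5, was 1 to 5 and the number called lower, 2, was 0 to 2 with 1 library left out. On the FPKM scale 1 was called lower with a pseudocount of 1, with 0.1 and without the filter: the filter removed Megf10, and without it Gas6 had an adjusted p of 0.0567 from limma. Of the other clearance genes, 30 were called higher and 1 lower. Without the FPKM filter 18 were higher, DESeq2 called 5 lower, and with 1 library left out 15 to 40 were higher and 0 to 3 lower. Against Adgre1, Cd68 and Csf1r alone, Mfge8 differed by -0.054 and Stab2 by -0.32. Except where stated, the cause was not tested.

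The replicate numbers did not pair the samples (correlations of deviations of -0.0858, -0.0556 and -0.00532). With the number as a replicate block, 4 of the 10 genes were called higher, and the adjusted p of Stab1 (log2 fold change 0.97) was 0.0545 in edgeR. Over all genes, leaving out 1 library gave 337 to 2368 higher and 94 to 1572 lower, DESeq2 called 1617 lower beside 952 in edgeR, and limma without the FPKM filter called 394 higher and 255 lower. The counts of Tyro3, Megf10 and Adgrb1, and those of Stab2 on ND, were too low to show small differences.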

Other observations

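By edgeR's test, of 8 smooth muscle and pericyte markers 2 were lower and 0 higher, with a median log2 fold change of -0.64, and their summed level was 855 to 1011 CPM on ND and 460 to 657 CPM on HFD. Of 7 dendritic cell markers 1 was higher and 0 were lower (median 0.35). Over all genes tested, the same test called 9.85% higher and 6.04% lower, the shares to set beside the counts of every marker list. Of 10 fibroblast and progenitor markers 0 were called (median 0.05), beside 1 lower at an unadjusted p under 0.05, 1 lower in DESeq2 and 0 in limma-voom. In the lists for lymphocytes, mesothelium and red blood cells, with 10, 8 and 5 genes tested, edgeR, DESeq2 and limma-voom called 0, as did an unadjusted p under 0.05 in edgeR. The 6 tested Schwann cell and nerve genes had a median log2 fold change of -1.21, whereas the summed level of their list was 37.5 to 49.9 CPM on ND and 71.9 to 78.2 CPM on HFD. The summed level of the lipid-associated macrophage markers was 10281 to 13592 CPM on ND and 12112 to 19143 CPM on HFD, and these ranges overlapped. Most of this sum was Lpl, the lipoprotein lipase that adipocytes also express, which did not pass (log2 fold change -0.33, adjusted p = 0.395 in edgeR), with 9729 to 12885 CPM on ND and 7882 to 9400 CPM on HFD. Without Lpl, a sum added after the values were seen, the other 9 markers had 552 to 707 CPM on ND and 2712 to 11262 CPM on HFD, with no overlap. The epididymis list had at most 1.65 summed CPM in any library, and 0 of its 7 genes passed the filter on low counts.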
